A study of Mus musculus with 12 samples.

Results

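The genes described here are 9 grouped for the identity of pyramidal neurons of CA1, an output field of the hippocampus: Zbtb20, Mef2c, Neurod2, Neurod6, Bcl11b, Slc17a7, Spink8, Wfs1 and Fibcd1. They were taken by symbol from a RefSeq gene table of 21523 protein-coding genes. Each was searched for c-Fos peaks whose midpoint lay inside the gene or at most 100 kb from it. The 9 genes had 8 of the 3294 peaks on assembled chromosomes. Of the 9, 5 had at least 1 peak: Mef2c had 3, Zbtb20 had 2, and Neurod6, Slc17a7 and Spink8 had 1 each. Over all protein-coding genes the share with a peak was 21.8%. Neurod2, Bcl11b, Wfs1 and Fibcd1 had none.

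The peaks came from CUT&RUN, in which an antibody guides a nuclease to cut bound DNA out of intact nuclei. C57BL/6 mice of 3 to 4 weeks with the genotype CaMK2a-Cre/+; LSL-Sun1-GFP/+ were given PBS or kainic acid, which activates glutamate receptors and provokes seizures. CA1 was dissected 2 to 3 h later according to the sample labels (the series design gives 2 h), and nuclei with the Sun1-GFP envelope tag, which the CaMK2a-driven Cre turns on in excitatory neurons, were sorted and used at 50000 per reaction. There were 3 replicates each of c-Fos after kainic acid, IgG after kainic acid, c-Fos after PBS and IgG after PBS, so all 4 groups carried the same alleles. The values described are from 1 list, the c-Fos peaks over IgG after kainic acid, which gives positions only. It holds no value per replicate, the read depth behind it is unknown, and the PBS groups were not analysed here. No test between samples was therefore possible, and expression of the 9 genes was not measured, so the labelled cell type could not be checked against its markers.

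c-Fos is a subunit of AP-1, a dimeric transcription factor that neurons assemble after strong firing and that binds mostly at enhancers. Its motif was searched for here with the pattern TGANTCA, in which N is any base. Zbtb20 is a zinc finger repressor required for the CA1 field to form, Neurod2 and Neurod6 are basic helix-loop-helix activators of excitatory neuron differentiation, Bcl11b is a zinc finger factor also known as Ctip2, and Mef2c is a MADS-box factor that limits the number of excitatory synapses. Slc17a7 encodes VGLUT1, which loads glutamate into synaptic vesicles. Wfs1 encodes wolframin of the endoplasmic reticulum, Spink8 a Kazal-type protease inhibitor, and Fibcd1 a membrane protein with a fibrinogen-like domain. The last 3 are used as markers of CA1, and the group as a whole is not restricted to genes specific to that field.

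Sequence from within a peak could be shown only where an annotated start window lay in it. The other printed sequences come from a start and a microRNA gene that lie near peaks but outside them. The RefSeq table of promoter windows (GRCm38.p6, 250 bases before to 50 after each start) held 10 windows of 8 of the 9 genes, and Spink8 had no entry. None of the 10 windows overlapped a peak, where 1.12% of the windows of all protein-coding genes did. The Zbtb20 peak at the 5′ end of that gene did hold both start windows of a long non-coding RNA gene, 4932412D23Rik, which is read in the opposite direction. The window that contains the peak's midpoint is printed first, because it is sequence from within a peak. It lies at chr16:42875538-42875837 on the minus strand, and capitals mark CCAAT or its complement ATTGG. The promoter window of the third Mef2c start follows, at chr13:83573357-83573656 on the plus strand. It is the Mef2c start nearest to a peak and the only 1 of the 10 windows with a match to TGANTCA, which is in capitals. The last entries are the 2 mature products of Mir9-2, a microRNA gene beside the distal Mef2c peak, with the seed (bases 2 to 8) in capitals.
4932412D23Rik window inside the Zbtb20 peak: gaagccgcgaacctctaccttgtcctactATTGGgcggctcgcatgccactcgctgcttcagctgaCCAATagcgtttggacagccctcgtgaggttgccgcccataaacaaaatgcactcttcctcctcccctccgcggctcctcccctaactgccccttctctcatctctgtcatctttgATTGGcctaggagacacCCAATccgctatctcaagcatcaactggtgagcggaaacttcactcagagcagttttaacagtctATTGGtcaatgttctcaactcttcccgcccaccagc
Mef2c, the third start: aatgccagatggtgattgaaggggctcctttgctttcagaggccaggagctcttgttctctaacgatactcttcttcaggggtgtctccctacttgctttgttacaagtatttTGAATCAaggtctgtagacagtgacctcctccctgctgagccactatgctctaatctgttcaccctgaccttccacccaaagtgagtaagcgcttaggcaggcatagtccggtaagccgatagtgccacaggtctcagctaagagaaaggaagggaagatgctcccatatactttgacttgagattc
miR-9-5p: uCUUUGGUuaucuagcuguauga
miR-9-3p: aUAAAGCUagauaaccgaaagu

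The window in the Zbtb20 peak had 5 CCAAT matches over both strands, at positions 30, 67, 183, 200 and 265 counted from its 5′ end. As many were present in 89 of 32851 RefSeq windows of 300 bases (0.271%), and 37.4% had at least 1. Of the 338 windows that overlapped any peak, 155 (45.9%) had at least 1, as did 6 of the 10 member windows. This motif, known as a promoter element bound by NF-Y, was chosen after the sequence had been read. The same window had no match to TGANTCA and none to TGACGTCA, the cAMP response element. The Mef2c window had TGAATCA, whose first base lies 137 bases before the start. TGANTCA as a pattern reads the same on both strands and allows any central base, which is A in the Mef2c match. Whether c-Fos binds that form was not tested. The pattern TGANTCA occurred in 2565 of all windows (7.81%), and in 59 of the 338 windows that overlapped any peak (17.5%). TGACGTCA occurred in 588 of all windows (1.79%), in 25 of the 338 (7.4%) and in none of the 10. These are letter matches in short windows. The sequences of the other peaks were not used here.

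Among the transcription factor genes, Zbtb20 had a peak at its outermost annotated 5′ end and another within its body. The gene spans 758.7 kb of chromosome 16 (42875689 to 43634392, mm10, plus strand). The first peak (42874670 to 42876472, 1803 bp wide) had its midpoint 118 bp before the outermost 5′ end and so covered both that end and the start of 4932412D23Rik (42725702 to 42875762). The second (43081853 to 43082751, 899 bp) lay 206.6 kb into the gene, at 27.2% of its length. The only Zbtb20 start in the promoter table (43247284) is deep inside the gene, 371.7 kb past the first peak and 165.0 kb past the second. Another 2 peaks lay just outside the 100 kb limit, 129.4 and 157.5 kb before the gene (42745630 to 42746893 and 42717282 to 42719108). The nearer of these fell within 4932412D23Rik. No protein-coding gene was closer than Zbtb20 to any of these 4 peaks; the next nearest, Gap43 or Tigit, was 377.5 to 543.8 kb away.

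Mef2c, 163.1 kb long on chromosome 13 (83504017 to 83667079, plus strand), had the most peaks of the 9 genes. The first (83565875 to 83567447, 1573 bp) was intragenic, 62.64 kb from the outermost start and 6.95 kb before the third of 3 listed starts, the one printed above. The second (83652158 to 83653191, 1034 bp) was near the end of the gene, at 91.2% of its length, where the non-coding gene Gm52044 (83636274 to 83662307) overlaps it. The third (83739192 to 83740421, 1230 bp) lay 72.73 kb beyond the end of Mef2c. That peak was inside the long non-coding RNA gene C130071C03Rik (83721381 to 83741308) and began 306 bases past the Mir9-2 hairpin (83738814 to 83738885). Its midpoint was 921.5 bp from the hairpin. Of 1228 microRNA genes in the table, 2 (0.163%) had a peak midpoint that near, Mir9-2 included. That cutoff is the distance of Mir9-2 itself, so the share describes this case only. Another microRNA gene, Gm51268 (83738821 to 83738876), lies on the opposite strand within the Mir9-2 hairpin, 315 bases from the same peak.

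The Mir9-2 products are also made from 2 other genes, and in the microRNA table the seeds CUUUGGU and UAAAGCU belong to miR-9-5p and miR-9-3p alone. MiR-9 is a microRNA abundant in the brain. Mir9-3 had its nearest peak at 18.7 kb and Mir9-1 at 329.7 kb. Mef2c remained the nearest protein-coding gene to all 3 of its peaks, and Tmem161b, the next, was 482.5 to 655.6 kb away. The table alone does not say which of these genes a peak acts on. This region was singled out after its positions had been seen.

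The Neurod pair differed. Neurod6, a short gene of 3.45 kb on chromosome 6 (55677818 to 55681263, minus strand), had a peak of 858 bp (55686171 to 55687028) centred 5.34 kb upstream of its only listed start. The peak fell inside the non-coding gene Gm3279 (55684571 to 55694574), and no other protein-coding gene lay within 100 kb of Neurod6. A further peak 184.6 kb upstream was inside Itprid1. Neurod2, 4.23 kb long on chromosome 11 (98325415 to 98329645), had no peak nearer than 1.24 Mb (97082745 to 97084885), and 63 protein-coding genes were closer to that peak. The first of them, Tbx21, was 14.19 kb from it. A peak at least as near was present for 85.9% of protein-coding genes in the case of Neurod2 and for 6.80% in that of Neurod6.

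Bcl11b, 93.74 kb long on chromosome 12 (107910403 to 108004145), was the member farthest from any peak. The nearest was 1.55 Mb upstream (109555039 to 109557068), inside the imprinted non-coding gene Meg3 and 8.85 kb from Rtl1. No other protein-coding gene lay within 100 kb of Bcl11b.

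**Figure D1:**
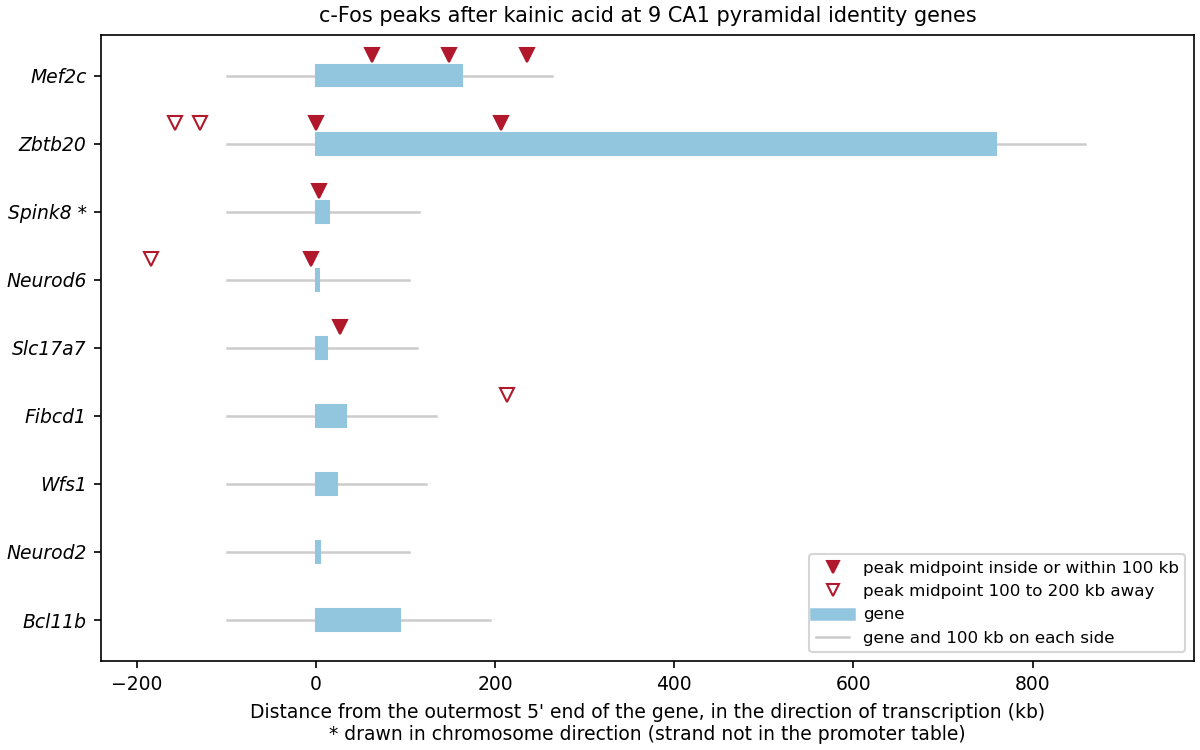
Each row is 1 of the 9 genes, drawn to scale from its outermost 5′ end in the direction of transcription (horizontal axis, kb; Spink8, whose strand was not in the promoter table, in chromosome direction). Bars are genes, lines add 100 kb on each side, filled triangles are the 8 peaks inside or within 100 kb, and open triangles are peaks 100 to 200 kb away. Mef2c, Zbtb20, Spink8, Neurod6 and Slc17a7 carry filled triangles, and the other 4 rows have none.

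Slc17a7, the VGLUT1 transporter gene, had its peak in a crowded region. The gene occupies 12.22 kb of chromosome 7 (45163921 to 45176139, plus strand). The peak (45189642 to 45190901, 1260 bp) lay 14.13 kb past its end and 26.35 kb from its start. It was inside Kash5, which encodes a meiotic protein that links chromosomes to the cytoskeleton, and inside the non-coding gene Gm31097. Pth2 (8.43 kb) and Gfy (10.67 kb) were closer to it as well. Slc17a7 had 15 other protein-coding genes within 100 kb, the most of the 9 members, and it had no peak when each peak was given only to its nearest protein-coding gene.

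Spink8 had the widest peak. The gene spans 14.43 kb of chromosome 9 (109812203 to 109826628), and the peak (109813258 to 109817936) was 4679 bp wide and covered 32.4% of it. Its midpoint was 3.39 kb from the low-coordinate end. A predicted protein-coding gene, Gm51691 (109811803 to 109819825), overlaps the same stretch, so the peak was inside both. No other peak lay within 1.37 Mb. Only 21 of the 3294 peaks (0.638%) were at least as wide, this one included.

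The remaining 2 markers had no peak within the limit. Fibcd1 (33.67 kb, chromosome 2, 31813290 to 31846964) was the member just outside it, with a peak 179.6 kb downstream (31632942 to 31634345). That peak was 1.38 kb from Prdm12, a zinc finger gene, and 7 protein-coding genes were closer to it than Fibcd1. Wfs1 (22.88 kb, chromosome 5, 36966104 to 36988982) had its nearest peak 290.6 kb downstream, a narrow one of 741 bp inside D5Ertd579e (36675155 to 36675895), with 11 protein-coding genes closer. The outermost peak inside the limit was the distal Mef2c peak at 72.73 kb. The list does not show whether weaker binding near these 4 genes failed its unknown threshold.

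**Figure D2:**
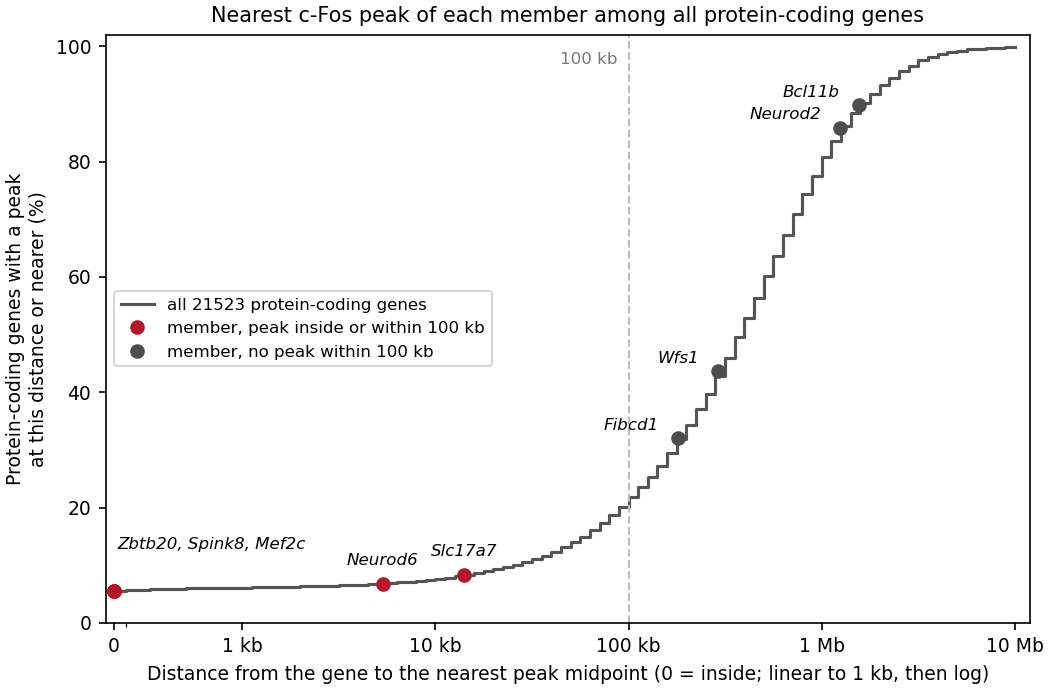
The horizontal axis is the distance from a gene to its nearest peak midpoint (0 is inside the gene; linear to 1 kb and logarithmic beyond), and the vertical axis is the percentage of protein-coding genes with a peak at that distance or nearer. The line is all 21523 protein-coding genes and the points are the 9 members. The 5 members with a peak within 100 kb sit between 5.52% and 8.26%, whereas Fibcd1 is at 32.0%, Wfs1 at 43.7%, Neurod2 at 85.9% and Bcl11b at 89.8%.

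At the 100 kb limit the members thus divided into genes with a peak and genes without. In the first set the nearest peak was inside the gene for Zbtb20, Mef2c and Spink8 and at 5.34 and 14.13 kb for Neurod6 and Slc17a7. In the second it was 179.6 kb or more away. The median over the 9 members was 14.13 kb, against 360.5 kb over all protein-coding genes. Fibcd1 (179.6 kb) and Wfs1 (290.6 kb) were nearer to a peak than that median of all genes, and Neurod2 and Bcl11b were farther. Of the 4 peaks outside the genes, 2 were upstream (Zbtb20 and Neurod6) and 2 downstream (Slc17a7 and Mef2c).

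The share of members with a peak was 5 of 9 (55.6%, exact Clopper-Pearson 95% interval 21.2 to 86.3, counting error only). Over all protein-coding genes it was 21.8%, which lies inside that interval. A peak inside the gene was found for 3 of 9 members, where 5.52% of all protein-coding genes had one. At 10 kb the members numbered 4 (7.55% of all genes), at 50 kb 5 (14.0%) and at 200 kb 6 (34.4%), Fibcd1 being the addition. Zbtb20 and Mef2c had 2 or more peaks, as did 5.59% of protein-coding genes, and Mef2c had 3 or more, as did 1.60%. The genes were picked with results of this list already known, so these counts describe the 9 genes and are no independent evidence about genes of CA1 identity.

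Longer genes offer more room for peaks, and the members range from 3.45 kb (Neurod6) to 758.7 kb (Zbtb20). All protein-coding genes were therefore divided into 5 equal classes by length, in which the share with a peak was 13.3%, 17.6%, 19.1%, 23.2% and 35.8% from the shortest to the longest. In the shortest class Neurod6 had a peak and Neurod2 did not, and the next class held no member. In the third Slc17a7 and Spink8 had a peak and Wfs1 did not. Fibcd1, alone in the fourth, had none. In the longest class Zbtb20 and Mef2c had peaks and Bcl11b did not. Whether length accounts for which members had a peak was not tested. Per Mb of searched sequence the 9 genes had 2.75 peaks (exact Poisson 95% interval 1.19 to 5.42), against 1.22 over the windows of all protein-coding genes. Mef2c was highest among the members with 8.26 per Mb, and Zbtb20, whose window is the longest, had 2.09.

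**Figure D3:**
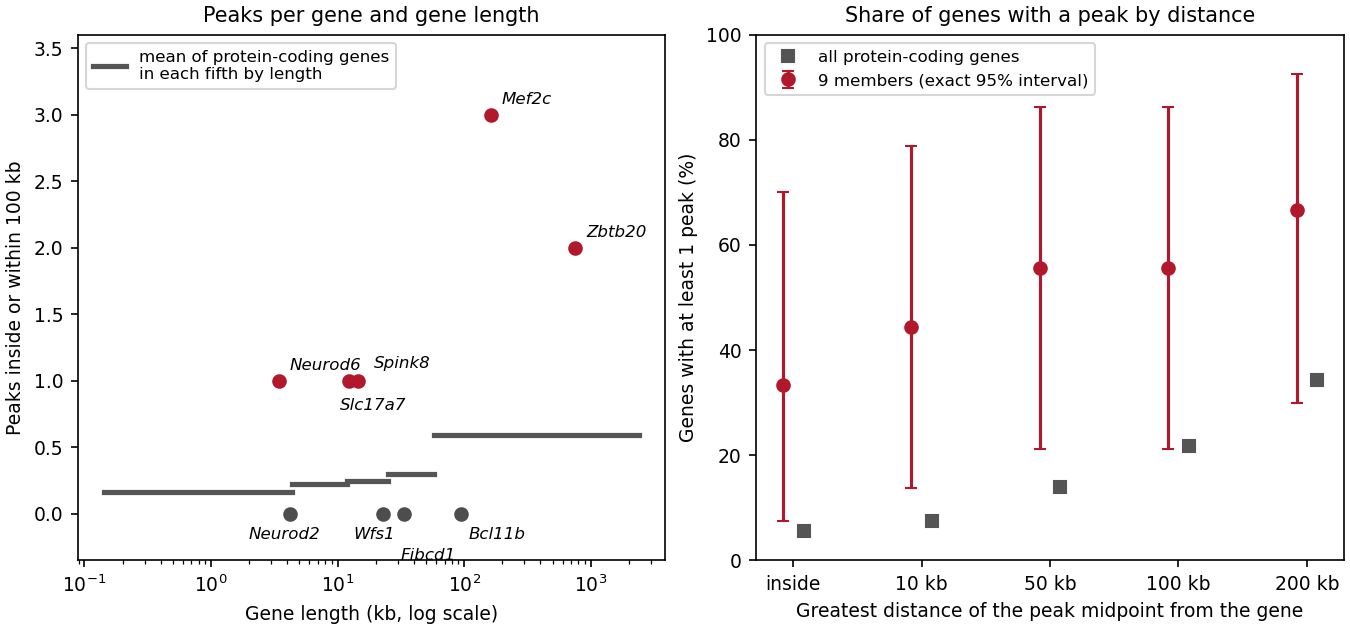
The left panel plots the number of peaks inside or within 100 kb of each member (points) against gene length in kb on a log axis, with horizontal lines at the mean of all protein-coding genes in each of 5 length classes (0.166 to 0.589 peaks). The right panel gives the percentage of genes with at least 1 peak by distance, for the 9 members (points, with exact 95% intervals) and all protein-coding genes (squares). The members' share runs from 33.3% inside genes to 66.7% at 200 kb, above the squares at each distance. The intervals include the square at 100 and 200 kb. The distances are nested and the genes were picked with results of this list known, so the intervals are no test.

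The widths of the 8 peaks lay on both sides of the overall median, and the one at Spink8 was among the widest. The 8 widths ran from 858 bp at Neurod6 to 4679 bp at Spink8, with a median of 1245 bp, against a median of 1341.5 bp over all peaks (quartiles 1097 and 1698.75 bp). Between those quartiles were 3 of the 8. The peak at Neurod6 and the second at Zbtb20 (899 bp) were narrow, since 93.2% and 91.0% of all peaks were at least as wide. At or above the overall median were 3 of the 8, those at Spink8, the outermost 5′ end of Zbtb20 (1803 bp) and the first Mef2c peak (1573 bp). Of all 3294 peaks, 1647 were. None of the 8 had another peak midpoint within 12.5 kb, as 455 of all 3294 peaks did (13.8%), so most peaks in the list likewise had no neighbour at that distance. The distance to the next peak had a median of 154.3 kb, against 129.1 kb over all peaks, and ran from 86.0 kb between the 2 peaks inside Mef2c to 1.37 Mb at Spink8.

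**Figure D4:**
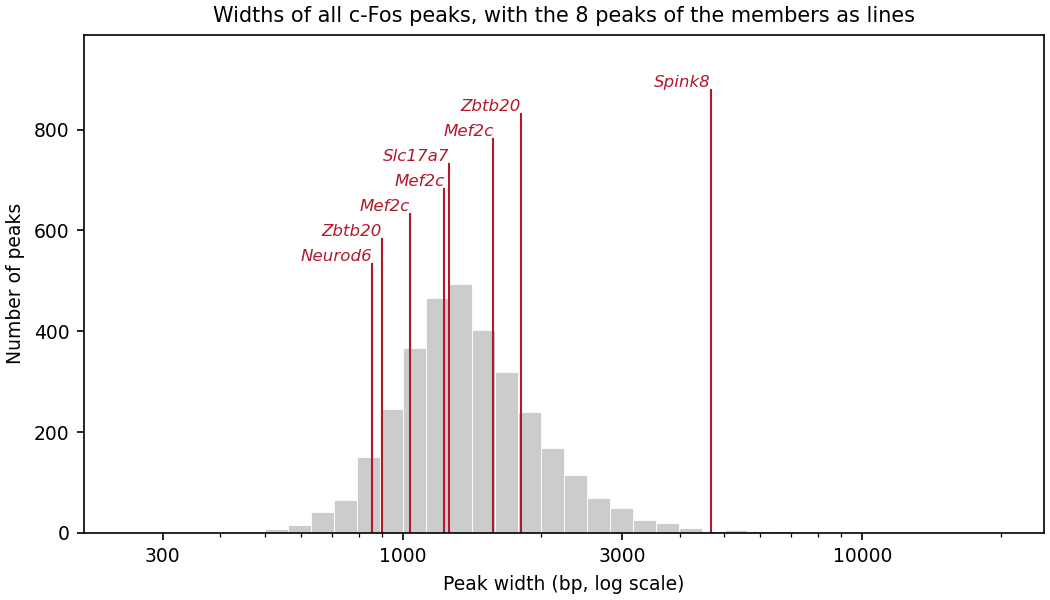
Grey bars count all 3294 peaks by width (bp, log axis), and each red line is 1 of the 8 peaks of the members, labelled by gene. The Spink8 line stands at 4679 bp and the others fall between 858 and 1803 bp.

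Overlap with long non-coding RNA genes was also described, a feature that follows from the same peak positions. The midpoint fell inside an annotated one for 5 of the 8 peaks: the first Zbtb20 peak (4932412D23Rik), the second and the third Mef2c peak (Gm52044 and C130071C03Rik), the Neurod6 peak (Gm3279) and the Slc17a7 peak (Gm31097). Over all 3294 peaks, not only those within 100 kb of a protein-coding gene, the share was 10.6%. The peak inside Spink8, the second Zbtb20 peak and the first Mef2c peak were in none. This feature was examined after the positions had been seen, and the 5 peaks come from 4 genes.

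Related genes served as a frame. Of 9 genes from the same families (Zbtb18, Neurod1, Neurod4, Mef2a, Mef2b, Mef2d, Slc17a6, Slc17a8 and Bcl11a), 0 had a peak inside or within 100 kb. A count of 0 allows up to 3 of 9 (33.3%; the exact upper bound is 33.6%), and the 21.8% of all protein-coding genes lies below that limit. Neurod1, a bHLH factor of newborn granule neurons, came closest at 115.0 kb, and Mef2d followed at 256.1 kb. Slc17a8 and Slc17a6, the genes of VGLUT3 and VGLUT2, were 329.7 kb and 1.15 Mb from a peak. Mef2b was at 436.1 kb and Mef2a at 541.3 kb. Bcl11a, the paralog of Bcl11b, was 1.00 Mb from a peak, Zbtb18 1.04 Mb and Neurod4 3.33 Mb. Within the Mef2 family, Mef2a is close to Mef2c in length (145.3 and 163.1 kb) and had no peak where Mef2c had 3. Spink8, Wfs1 and Fibcd1 have no relative in this list, so it is not matched to the members gene by gene. The difference between members and relatives was not tested.

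Other genes of pyramidal neurons were also described. Of 23, 9 had a peak (39.1%, exact interval 19.7 to 61.5, against 21.8% of all protein-coding genes), with a median of 0 peaks per gene, as over all protein-coding genes, and a median of 1 for the 9 members. Ppp3ca, which encodes the catalytic subunit of calcineurin, had 7 peaks, 6 of them inside the gene. The first 4 were crowded between 136825837 and 136837469 on chromosome 3. Nr3c2, the mineralocorticoid receptor gene, had 2 intragenic peaks, and Man1a, a mannosidase of the Golgi, and Pex5l, a regulator of HCN channels, had 1 each. These 4 genes are 171.8 to 346.9 kb long.

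Markers of the neighbouring fields, dentate gyrus, CA3 and CA2, numbered 17, of which 4 had a peak (23.5%, interval 6.81 to 49.9; median 0). Dock10, a guanine nucleotide exchange factor, had 5, of which 4 were inside the gene. The cell adhesion gene Nectin3 had 2 and the kainate receptor gene Grik4 had 1, all intragenic. Amigo2, a marker of CA2, had 1 at 68.2 kb. CA1 was dissected first, and the sort then kept nuclei by CaMK2a-Cre activity and not by field. Whether nuclei of other fields were still present, and their part in these peaks, was not tested. Members, other pyramidal genes and markers of other fields had 2.75, 2.47 and 1.68 peaks per Mb of searched window, against 1.22 over all protein-coding genes, with a median gene length of 22.9, 30.5 and 47.3 kb. Single genes weigh heavily in these densities. Mef2c had 3 of the 8 peaks of the members, Ppp3ca 7 of the 16 of the other pyramidal genes, and Dock10 5 of the 9 of the other fields. None of the differences between lists was tested.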

How the data were processed

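CUT&RUN with c-Fos or IgG antibody was run on sorted CA1 nuclei in 12 samples, 4 groups of 3 replicates mapped from the sample titles. The submitters' processing notes name Trimmomatic 0.36, Bowtie2 2.2.9, bedtools 2.27.1 and SEACR 1.1 with builds mm10 and sacCer3; what each tool did, with which settings, and how replicates were combined is not stated. The authors deposited 1 list of 3295 peaks in 3 columns (chromosome, start, end) without score or signal, attached to 1 replicate and treated as pooled for its group; 1 peak on an unplaced sequence was left out. Depth is unknown, so intervals cover counting error over genes or peaks only.

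Positions are 1-based. Genes came from RefSeq GRCm38.p6, the assembly of mm10. Genes starting below 3000000 (340, of which 108 protein-coding) were left out as their coordinates looked like positions on scaffolds. All members and all genes of the 3 related lists matched by symbol. Strand and starts came from the RefSeq promoter windows, which covered 17274 of 21523 protein-coding genes. A peak belonged to a gene when its midpoint lay inside it or within 100 kb. Counts were made in Python 3.11.15 (pandas 2.3.3, scipy 1.17.1) and checked against bedtools 2.31.1 on planted and deposited peaks. No replicate could be left out and no p-value was computed. The members and lists were chosen with earlier results of these data known. All members and family relatives are named, and from the other 2 lists the 4 genes with the nearest peak. The CCAAT motif, the microRNA genes and the overlap with non-coding genes were added after the positions were seen. Alternatives were other distances, any overlap, the nearest gene only, wider peaks, merging within 500 bp and all gene types.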

Additional observations from a re-analysis of the deposited data

How the results depend on the processing

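No paired analysis was possible because the deposited positions are 1 set for all replicates, and for that reason none could be left out. Under 8 other ways of linking or filtering peaks, the share of members with a peak ran from 33.3% to 66.7% and stayed above that of all protein-coding genes. All 8 reuse the same list around genes picked with its results known, so they are no independent support. Settings that use fewer peaks or less sequence gave fewer by construction: 4 of the 8 were left when only the gene body counted (Zbtb20, Mef2c and Spink8, 33.3% of members against 5.52%), and 3 when only the 1647 peaks at or above the median width were used (33.3% against 12.6%). Linking each peak to its nearest protein-coding gene left 7 and removed Slc17a7 (44.4% against 8.63%). Any overlap of the peak with the window and merging within 500 bp left all 9 members with the same number of peaks. With all gene types as background the share was 20.4%. The median width of 1245 bp became 1303.5 bp within 10 kb and also in the gene body, both from fewer peaks. Neurod2, Bcl11b and Wfs1 had no peak under any of the 8. Unknown depth and an unknown threshold limit every statement that a gene had no peak.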
